A study of Mus musculus with 10 samples.

Results

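The 10 genes described here serve the lipid droplet: the perilipins Plin2, Plin3, Plin4 and Plin5, the CIDE genes Cidea, Cideb and Cidec, the lipolysis genes Pnpla2 and G0s2, and the triglyceride synthase gene Dgat2. They were chosen by symbol, and 10 of 10 were found, each on 1 row, among 56748 genes whose expression was measured by RNA sequencing as FPKM (fragments per kilobase of gene and per 1 M reads). Libraries came from 3 Akt/Nras/Foxo1AAA liver tumours, 3 Akt/Nras liver tumours and 4 normal livers of wild-type mice of the FVB strain. Both tumour groups were raised by hydrodynamic tail vein injection, in which plasmid DNA pushed quickly into the tail vein enters hepatocytes, so Akt and Nras are common to both and Foxo1AAA marks one of them. AKT is a kinase that normally shuts the transcription factor FOXO1 out of the nucleus, and Foxo1AAA carries alanines at the AKT sites and escapes this control. The mice's ages, the promoters of the plasmids, and whether the normal livers received an injection are not given here by labels or files. Nor do they say that each library came from its own mouse, and p-values therefore reflect only how these libraries spread, which may be technical.

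A lipid droplet is a store of triglyceride and sterol ester wrapped in a phospholipid monolayer and coated with proteins. DGAT2 makes the last bond of a triglyceride at the endoplasmic reticulum and droplet surface, perilipins coat the droplet and govern access of lipases, CIDE proteins drive droplet fusion and lipid transfer, and PNPLA2 (adipose triglyceride lipase) removes the first fatty acid, which G0S2 inhibits. Hepatocytes use droplets to buffer fatty acids between lipoprotein secretion and oxidation, and PLIN2 is the main perilipin of fatty liver.

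Each library held 13.6 to 21.3 M whole reads in genes, recovered from FPKM and gene length. The deposited FPKM summed to 413812.4 to 444893.0 in Akt/Nras/Foxo1AAA tumours and 349618.6 to 381653.1 in Akt/Nras tumours, against 692009.9 to 743202.8 in normal livers. Because these totals do not overlap between groups, every result was also computed with all libraries rescaled to the same total, called equal totals below, which shifts all genes together. Against normal liver the median log2 change over all tested genes was then 0.47 with Foxo1AAA and 0.70 without it, where deposited FPKM gave -0.09 and -0.07. For one tumour group over the other it was -0.21, where deposited FPKM gave -0.01. Scaling by median gene ratios, which by design brings such medians near 0, gave -0.0095, 0.0031 and 0.0025 for the same 3 comparisons. It thus lies close to deposited FPKM. It kept the direction and call of all 30 results of the 10 genes given below, which is no separate support for them. Foxo1 stood at 83.3, 77.9 and 125 FPKM in Akt/Nras/Foxo1AAA tumours, at 5.37 to 6.05 FPKM in Akt/Nras tumours and at 6.75 to 8.02 FPKM in normal livers, as the labels have it. Akt1 stood at 670 to 1198 FPKM in Akt/Nras/Foxo1AAA tumours and 719 to 963 FPKM in Akt/Nras tumours, against 20.6 to 21.6 FPKM in normal livers, and Nras at 8.96 to 9.46, 9.62 to 11.0 and 4.84 to 5.56 FPKM in the same order. Akt/Nras/Foxo1AAA replicate 3 held the highest Foxo1 and Akt1 of all libraries and stands apart for the CIDE genes below.

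Promoter windows from RefSeq (build GRCm38.p6, 250 bases before to 50 after each start, 300 in all) matched 8 of the 10 genes, Plin2, Plin3, Plin4, Plin5, Cideb, Cidec, G0s2 and Pnpla2, with 10 windows. Shown are those of Plin2, Plin3 and Cidec, which were higher in both tumour groups under every scaling tried, and that of Pnpla2, whose direction turned with the scaling. The windows are chr4:86670010-86670309 for Plin2, chr17:56290462-56290761 for Plin3, chr6:113435711-113436010 for the first Cidec window, all on the minus strand, and chr7:141454938-141455237 for Pnpla2 on the plus strand. They read 5′ to 3′, with capitals for matches to the forkhead core TGTTT, the nuclear receptor element AGGTCA or the E-box CACGTG, on either strand, so that a match on the other strand shows its reverse complement.
Plin2: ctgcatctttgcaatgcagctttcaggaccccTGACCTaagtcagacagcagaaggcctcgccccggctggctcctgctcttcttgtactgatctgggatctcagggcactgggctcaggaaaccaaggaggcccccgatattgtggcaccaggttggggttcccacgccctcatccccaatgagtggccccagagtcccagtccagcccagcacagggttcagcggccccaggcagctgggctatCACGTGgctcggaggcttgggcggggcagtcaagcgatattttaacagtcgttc
Plin3: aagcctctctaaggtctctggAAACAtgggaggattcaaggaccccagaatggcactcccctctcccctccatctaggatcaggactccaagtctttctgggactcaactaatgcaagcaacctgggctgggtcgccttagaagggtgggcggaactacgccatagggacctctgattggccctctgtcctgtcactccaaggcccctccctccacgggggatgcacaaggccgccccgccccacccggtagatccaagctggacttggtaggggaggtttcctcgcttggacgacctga
Cidec: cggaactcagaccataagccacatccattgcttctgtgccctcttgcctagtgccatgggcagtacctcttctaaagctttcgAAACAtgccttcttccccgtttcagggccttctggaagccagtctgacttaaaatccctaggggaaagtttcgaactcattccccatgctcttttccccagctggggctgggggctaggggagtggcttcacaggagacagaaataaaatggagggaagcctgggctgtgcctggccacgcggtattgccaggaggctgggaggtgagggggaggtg
Pnpla2: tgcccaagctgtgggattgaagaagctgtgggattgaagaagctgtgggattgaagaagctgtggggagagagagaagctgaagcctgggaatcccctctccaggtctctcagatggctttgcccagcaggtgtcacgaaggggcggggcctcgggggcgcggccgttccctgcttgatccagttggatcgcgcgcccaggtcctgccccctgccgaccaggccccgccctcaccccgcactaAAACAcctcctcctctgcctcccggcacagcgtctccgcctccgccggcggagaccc
The longer forkhead motif TGTTTAC, searched on both strands like all motifs here, was in 0 of the 10 windows and in 3.65% of 32851 RefSeq promoter windows of this length. Its core TGTTT, which lies within the longer motif, was in windows of Plin3, Plin4, Plin5, Cidec and Pnpla2 and in 50.5% of all windows. AGGTCA was in windows of Plin2 and Plin5 and in 16.3% of all windows, while 2 copies of it 1 base apart, the element of PPAR and RXR dimers, were in 0 of the 10 and in 0.0396% of all windows. CACGTG, which MYC, USF and ChREBP family factors can bind, was in the Plin2 window, across the transcript start, and in 7.15% of all windows. TATAAA was in the Cideb window and in 13.6% of all windows. These matches describe the letters of these windows and are neither sites shown to be bound nor a cause of the values below.

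The perilipin Plin2, the coat protein of most hepatocyte droplets, was higher in both tumour groups. Its level was 234, 219 and 260 FPKM in Akt/Nras/Foxo1AAA tumours and 213, 163 and 159 FPKM in Akt/Nras tumours, against 123, 127, 105 and 131 FPKM in normal livers. No tumour library of either kind reached down to a normal liver, and the Akt/Nras/Foxo1AAA libraries lay above the Akt/Nras ones. The ratio of means to normal liver was 1.95 for Akt/Nras/Foxo1AAA tumours (limma log2 change 0.96 ± 0.12 SE, adjusted p = 6.33e-05) and 1.47 for Akt/Nras tumours (limma log2 change 0.54 ± 0.12 SE, adjusted p = 0.00267). Between the tumour groups the log2 change was 0.42 (95% interval 0.13 to 0.72) and did not pass (limma adjusted p = 0.0656), with 0.17 under equal totals and 0.56 without Akt/Nras replicate 1, where it passed (limma adjusted p = 0.0283). Log2 changes here and below are of FPKM + 1.

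Plin3, the perilipin that moves from cytosol to young droplets, was higher in both tumour groups. Its level was 39.8, 39.8 and 39.1 FPKM in Akt/Nras/Foxo1AAA tumours and 35.6, 34.4 and 34.3 FPKM in Akt/Nras tumours, against 15.7, 12.2, 11.8 and 15.3 FPKM in normal livers. The 6 tumour libraries lay in a narrow band above every normal liver. It was 2.88-fold higher in Akt/Nras/Foxo1AAA tumours (limma log2 change 1.47 ± 0.10 SE, adjusted p = 8.91e-07) and higher by 2.53-fold in Akt/Nras tumours (limma log2 change 1.29 ± 0.10 SE, adjusted p = 1.24e-06) than in normal liver. Its log2 change between the tumour groups was 0.18 (95% interval -0.06 to 0.42, limma adjusted p = 0.304) and turned to -0.06 under equal totals.

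Plin4, a perilipin of white fat, was low throughout, with 75 to 271 reads in a tumour library and 7 to 42 in a normal liver. It stood at 1.18, 0.952 and 0.827 FPKM in Akt/Nras/Foxo1AAA tumours and 2.59, 1.21 and 1.80 FPKM in Akt/Nras tumours, against 0.242, 0.298, 0.691 and 0.125 FPKM in normal livers. The 3 groups did not overlap, with Akt/Nras tumours highest. Plin4 passed the filter of 1 FPKM in 3 libraries through tumour libraries alone, 1 of 3 Akt/Nras/Foxo1AAA and 3 of 3 Akt/Nras tumours, with 0 of the 4 normal livers at 1 FPKM, so its calls against normal liver carry little (log2 change 0.58, limma adjusted p = 0.0168, for Akt/Nras/Foxo1AAA tumours and 1.09, limma adjusted p = 0.000322, for Akt/Nras tumours). Plin4 overlaps Hdgfl2 on the other strand, which reached 9.48 FPKM. The Akt/Nras/Foxo1AAA call was lost in 2 of 17 alternatives, among them the one without Akt/Nras/Foxo1AAA replicate 1 (limma adjusted p = 0.0607), and Plin4 did not pass the filter when only that group and normal liver were compared. Between the tumour groups the log2 change was -0.51 (95% interval -0.94 to -0.07, limma adjusted p = 0.117), and under equal totals it was -0.72 and passed (limma adjusted p = 0.0195).

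Markers of fat cells were set beside Plin4, Cidea, Cidec and G0s2, all of them abundant in adipose tissue. Of 8 adipocyte markers, Adipoq, Lep, Retn, Cfd, Plin1 and Adig were at 0 in all 3 Akt/Nras/Foxo1AAA libraries and below 1 FPKM in every library. Adipoq stood at traces of 0.881, 0.122 and 0.068 FPKM in Akt/Nras tumours and at 0 in normal livers. Akt/Nras replicate 1, with 0.881 FPKM of Adipoq and 0.301 FPKM of Plin1, also had the highest Plin4. The part of fat cells in the Plin4 values was not tested. The summed level of the 8 markers was 9.37 to 13.3 FPKM in Akt/Nras/Foxo1AAA tumours, 10.7 to 17.8 FPKM in Akt/Nras tumours and 4.64 to 6.58 FPKM in normal livers. Most of it in tumours was Fabp4, a fatty acid carrier that macrophages and endothelium also make. The lipase gene Lipe went the other way, with means of 1.49, 1.44 and 4.30 FPKM in the same order. The brown fat genes Ucp1 and Zic1 were at 0 in all 10 libraries.

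Plin5, the perilipin that tethers droplets to mitochondria in oxidative cells, did not separate the groups. Its level was 21.4, 15.2 and 14.6 FPKM in Akt/Nras/Foxo1AAA tumours and 20.3, 11.6 and 14.5 FPKM in Akt/Nras tumours, against 16.4, 18.4, 26.4 and 18.5 FPKM in normal livers. The ranges of all 3 groups overlapped. Log2 changes against normal liver were -0.21 for Akt/Nras/Foxo1AAA tumours (95% interval -0.67 to 0.25, limma adjusted p = 0.397) and -0.36 for Akt/Nras tumours (95% interval -0.82 to 0.10, limma adjusted p = 0.15). Under equal totals they were 0.47 and 0.56 and passed (limma adjusted p = 0.0477 and 0.0202), while scaling by median gene ratios kept the deposited direction. Its direction thus rests on the scaling. Plin4 and Plin5 lie next to each other on the minus strand of chromosome 17, 1797 bases apart, and Plin3 lies 159879 bases further, in deposited coordinates whose build is not named.

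Ratios within a library do not depend on the scaling. Plin2 was 10.9, 14.4 and 17.9 times Plin5 in Akt/Nras/Foxo1AAA tumours and 10.5, 14.0 and 11.0 times in Akt/Nras tumours, against 7.51, 6.92, 3.99 and 7.07 times in normal livers. Every tumour library exceeded every normal liver. The geometric mean of the ratio was 2.28-fold higher in Akt/Nras/Foxo1AAA tumours and 1.89-fold higher in Akt/Nras tumours than in normal liver (exact permutation p = 0.0571 each, two-sided, the smallest that 3 against 4 libraries allow, adjusted p = 0.129 over 9 tests). Plin2 kept about the same share of summed perilipin FPKM, with 80.4% ± 1.99 in Akt/Nras/Foxo1AAA tumours, 77.3% ± 1.33 in Akt/Nras tumours and 78.0% ± 3.40 in normal livers (SD, n = 3, 3 and 4). Plin3 held 13.4% ± 1.05, 15.3% ± 1.88 and 8.82% ± 1.07 of it in the same groups, and Plin5 5.79% ± 1.31, 6.64% ± 1.01 and 12.9% ± 3.63.

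**Figure D1:**
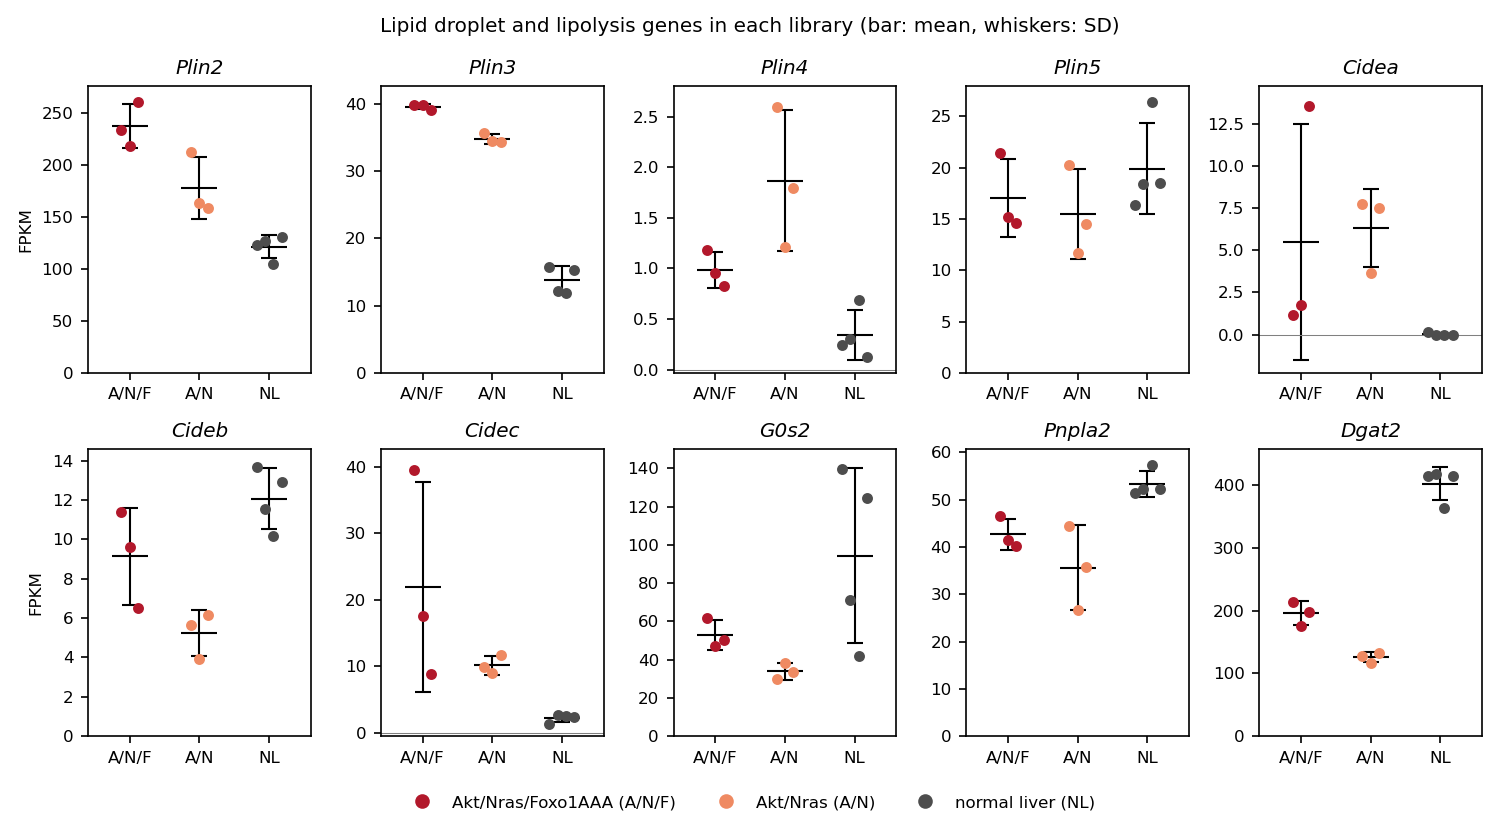
Level of each of the 10 genes in FPKM (y axis) in every library (points) of the Akt/Nras/Foxo1AAA, Akt/Nras and normal liver groups (x axis), with the group mean as a bar and whiskers of 1 SD (n = 3, 3 and 4). In deposited FPKM, Plin2, Plin3, Plin4, Cidea and Cidec lay higher and Dgat2 and Pnpla2 lower in all 6 tumour libraries than in any normal liver. Under equal totals Pnpla2 overlapped, with 40.2 to 64.3 FPKM in tumours and 37.0 to 41.7 FPKM in normal livers. Of all tested genes limma called 26.8% higher and 36.5% lower in Akt/Nras/Foxo1AAA tumours, and 31.1% and 37.9% in Akt/Nras tumours. There was 1 Akt/Nras/Foxo1AAA library with 13.6 FPKM of Cidea.

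Cidec, whose protein enlarges droplets by moving lipid from small to large ones and is induced in steatotic liver, was higher in both tumour groups. Its level was 39.5, 17.5 and 8.79 FPKM in Akt/Nras/Foxo1AAA tumours and 9.86, 8.91 and 11.7 FPKM in Akt/Nras tumours, against 1.38, 2.70, 2.48 and 2.32 FPKM in normal livers. The 6 tumour libraries lay above all normal livers, and Akt/Nras/Foxo1AAA tumours spread 4.49-fold among themselves. Against normal liver it was 9.87-fold higher in Akt/Nras/Foxo1AAA tumours (limma log2 change 2.61 ± 0.38 SE, adjusted p = 0.000137) and higher by 4.57-fold in Akt/Nras tumours (limma log2 change 1.80 ± 0.38 SE, adjusted p = 0.00141). Without Akt/Nras/Foxo1AAA replicate 1, the highest, Cidec was 5.92-fold above normal liver in that group (log2 change 2.08, limma adjusted p = 8.28e-05). The log2 change between the tumour groups was 0.81 (95% interval -0.08 to 1.70, limma adjusted p = 0.212).

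Cidea, best known from brown fat and from fatty liver, was nearly absent from normal liver. Its level was 1.14, 1.76 and 13.6 FPKM in Akt/Nras/Foxo1AAA tumours (23, 35 and 216 reads) and 7.74, 3.63 and 7.53 FPKM in Akt/Nras tumours (142, 72 and 179 reads), against 0.153 FPKM in normal liver replicate 1 and 0 in the other 3 normal livers, with 2 reads in all. Every tumour library exceeded every normal liver. With reads pooled per group, the ratio to normal liver was 106 for Akt/Nras/Foxo1AAA tumours (95% interval 29.2 to 882) and 138 for Akt/Nras tumours (38.0 to 1150), intervals that cover counting error only. Akt/Nras/Foxo1AAA replicate 3 held 216 of the 274 reads of its group, and without it the ratio was 31.4 (95% interval 8.32 to 266). Cidea too passed the filter through tumour libraries alone, so its calls against normal liver carry little (log2 change 2.09, limma adjusted p = 0.00635, for Akt/Nras/Foxo1AAA tumours and 2.76, limma adjusted p = 0.000974, for Akt/Nras tumours). Its change between the tumour groups did not pass (log2 change -0.67, 95% interval -1.96 to 0.62, limma adjusted p = 0.486).

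Akt/Nras/Foxo1AAA replicate 3 had the highest Cidea and the lowest Cidec and Cideb of its group. Left out, the log2 change between the tumour groups was -1.53 for Cidea (limma adjusted p = 0.00545) and 1.30 for Cidec (limma adjusted p = 0.0194), so both passed, in opposite directions. Without Akt/Nras/Foxo1AAA replicate 1 it was -0.15 for Cidea (limma adjusted p = 0.918) and 0.28 for Cidec (limma adjusted p = 0.608), and each of the pair passed in 1 of 19 alternatives. The same library had 125 FPKM of Foxo1 against 83.3 and 77.9 FPKM in the other 2 of its group. It had 48.0 FPKM of Hilpda against 16.4 and 23.3 FPKM, and 5356 FPKM of the hepatocyte gene Apoa1 against 9469 and 7178 FPKM. The hepatocyte genes Alb, Apoa2 and Ttr were also lowest there within the group, but Hnf4a and Tat were not. Hnf4a stood at 119.5 FPKM against 130.3 and 112.9 FPKM, and Tat at 200.7 FPKM against 226.9 and 154.3 FPKM. The part of these differences in the CIDE values was not tested.

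Cideb is the CIDE gene of healthy hepatocytes, where its protein lipidates very-low-density lipoprotein. It stood at 11.4, 9.59 and 6.49 FPKM in Akt/Nras/Foxo1AAA tumours and 5.64, 3.93 and 6.15 FPKM in Akt/Nras tumours, against 13.7, 11.5, 10.2 and 12.9 FPKM in normal livers. Akt/Nras libraries lay below all others, and Akt/Nras/Foxo1AAA libraries reached into the range of normal liver. It was 2.30-fold lower in Akt/Nras tumours than in normal liver (limma log2 change -1.08 ± 0.18 SE, adjusted p = 0.000348), but under equal totals the log2 change was -0.22 and did not pass (limma adjusted p = 0.251). For Akt/Nras/Foxo1AAA tumours it was -0.39 (95% interval -0.79 to 0.02, limma adjusted p = 0.0863), and 0.27 under equal totals. With Foxo1AAA against without it Cideb was 1.75-fold higher (limma log2 change 0.69 ± 0.20 SE, adjusted p = 0.0454), a call kept in only 5 of 19 alternatives, where adjusted p ranged from 0.00988 to 0.164. Leaving out any single library other than Akt/Nras/Foxo1AAA replicate 3 ended it. Cideb overlaps Nop9 and another gene without a symbol on the other strand, whose levels reached at most 8.36 FPKM. That is above every Akt/Nras value of Cideb. Since no source used here gives the strandedness, reads of these genes cannot be told apart.

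Within the CIDE family the order turned over. Cidec was 3.47, 1.83 and 1.35 times Cideb in Akt/Nras/Foxo1AAA tumours and 1.75, 2.27 and 1.90 times in Akt/Nras tumours, against 0.101, 0.234, 0.243 and 0.180 times in normal livers. Cidec thus exceeded Cideb in 6 of 6 tumour libraries and 0 of 4 normal livers. The geometric mean of the ratio was 11.4-fold higher in Akt/Nras/Foxo1AAA tumours and 10.9-fold higher in Akt/Nras tumours than in normal liver (exact permutation p = 0.0571 each, two-sided, adjusted p = 0.129). Cideb made up 25.9% ± 6.36 of summed CIDE FPKM in Akt/Nras/Foxo1AAA tumours and 24.2% ± 0.231 in Akt/Nras tumours, against 84.0% ± 4.37 in normal livers (SD, n = 3, 3 and 4). Cidea held between 2.19% and 47.0% of the sum in Akt/Nras/Foxo1AAA tumours and 22.0% to 33.3% in Akt/Nras tumours. The overlap of Cideb with genes on the other strand limits these ratios and shares too.

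**Figure D2:**
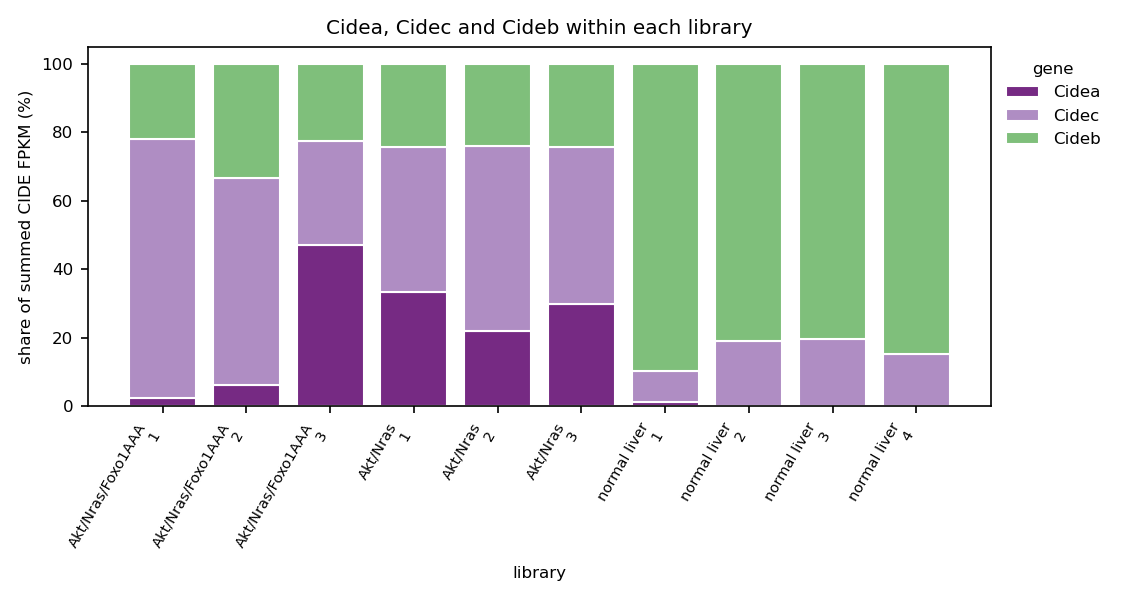
Share of summed CIDE FPKM in percent (y axis) held by Cidea, Cidec and Cideb (colours) in each library (x axis), tumours on the left. Cideb filled 80.4% to 89.9% in normal livers and at most 33.2% in tumours, and Cidea reached 47.0% in Akt/Nras/Foxo1AAA replicate 3.

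Dgat2, the triglyceride synthase, was the most abundant of the 10 genes in normal liver and lower in both tumour groups. Its level was 214, 175 and 198 FPKM in Akt/Nras/Foxo1AAA tumours and 128, 117 and 132 FPKM in Akt/Nras tumours, against 415, 418, 364 and 414 FPKM in normal livers. The 3 groups were fully apart, with Akt/Nras/Foxo1AAA tumours in between. It was 2.06-fold lower in Akt/Nras/Foxo1AAA tumours (limma log2 change -1.04 ± 0.10 SE, adjusted p = 6.02e-06) and 3.19-fold lower in Akt/Nras tumours (limma log2 change -1.67 ± 0.10 SE, adjusted p = 1.38e-07) than in normal liver. Under equal totals these changes were -0.32 and -0.70 and still passed (limma adjusted p = 0.0129 and 5.33e-05). Dgat2 was also 1.55-fold higher in Akt/Nras/Foxo1AAA than in Akt/Nras tumours (log2 change 0.63, 95% interval 0.40 to 0.86, limma adjusted p = 0.00708), and it passed in 19 of 19 alternatives, with 0.38 under equal totals.

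Plin2 and Dgat2 changed places as the most abundant of the 10. Plin2 was 1.10, 1.25 and 1.31 times Dgat2 in Akt/Nras/Foxo1AAA tumours and 1.66, 1.39 and 1.20 times in Akt/Nras tumours, against 0.297, 0.305, 0.289 and 0.315 times in normal livers. The coat gene exceeded the synthase gene in 6 of 6 tumour libraries and in 0 of 4 normal livers, a ratio that no rescaling of a library can alter. This pair was chosen after its values were seen and was not tested. By group mean Plin4 was last of the 10 in both tumour groups, and Cidea was last in normal liver. In Akt/Nras/Foxo1AAA tumours the ranges of Plin4 and Cidea overlapped, and Cidea was above Plin4 in 2 of 3 libraries. Pnpla2, Plin3 and G0s2 stood next to each other in Akt/Nras tumours, at means of 35.6, 34.8 and 33.8 FPKM, with ranges that overlapped.

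**Figure D3:**
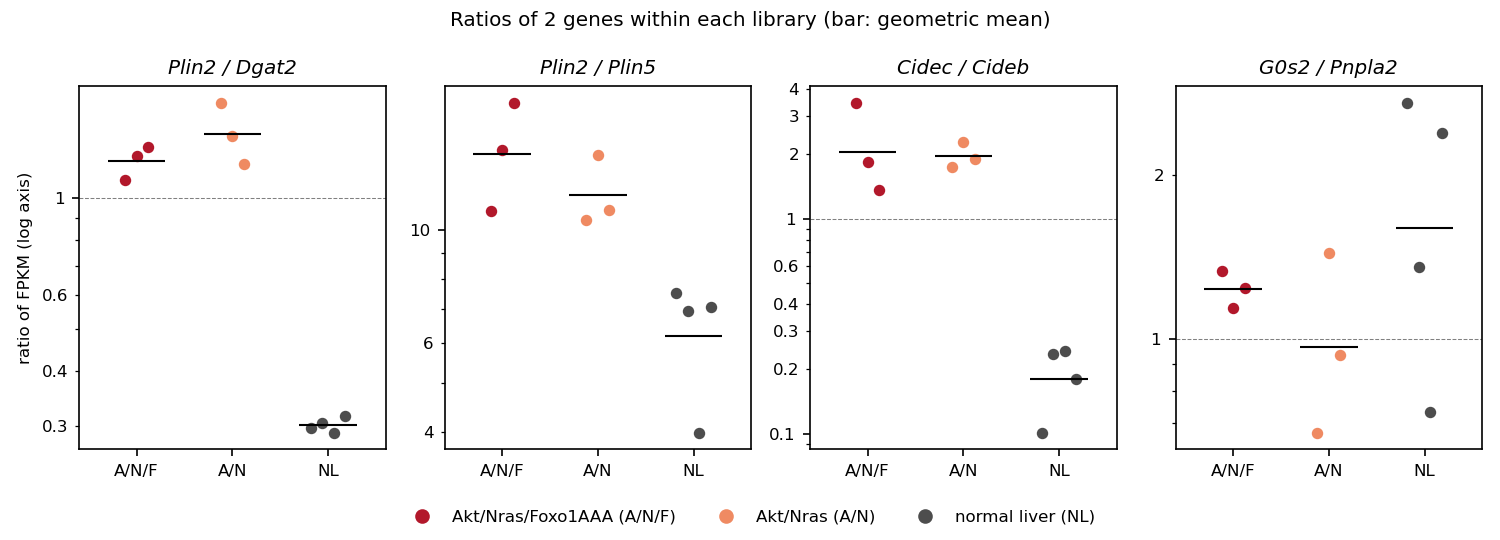
Ratio of the FPKM of 2 genes within each library (points, log axis) for Plin2 to Dgat2, Plin2 to Plin5, Cidec to Cideb and G0s2 to Pnpla2, by group, with the geometric mean as a bar and a dashed line at 1 where it is in range. The first 3 ratios were higher in all 6 tumour libraries than in any of the 4 normal livers, and G0s2 to Pnpla2 overlapped.

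Pnpla2, the lipase that starts droplet lipolysis and a known FOXO1 target, stood at 46.4, 41.4 and 40.2 FPKM in Akt/Nras/Foxo1AAA tumours and 44.5, 26.7 and 35.7 FPKM in Akt/Nras tumours, against 51.3, 52.3, 57.3 and 52.2 FPKM in normal livers. All tumour libraries lay below all normal livers in deposited FPKM, and the tumour groups overlapped. Its mean in Akt/Nras tumours was 0.669 of that in normal liver and was called lower (limma log2 change -0.60 ± 0.14 SE, adjusted p = 0.0035), while for Akt/Nras/Foxo1AAA tumours the log2 change was -0.31 (95% interval -0.63 to 0.003, limma adjusted p = 0.0772). Under equal totals it was called in the other direction in both (log2 changes 0.39 for Akt/Nras/Foxo1AAA tumours and 0.36 for Akt/Nras tumours, limma adjusted p = 0.0201 and 0.0283). The log2 change between the tumour groups was 0.28 (95% interval -0.06 to 0.62, limma adjusted p = 0.254).

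G0s2, the inhibitor of that lipase, stood at 62.0, 47.2 and 49.99 FPKM in Akt/Nras/Foxo1AAA tumours and 29.9, 38.4 and 33.3 FPKM in Akt/Nras tumours, against 140, 70.9, 42.1 and 125 FPKM in normal livers. Normal livers spread 3.32-fold among themselves and spanned the Akt/Nras/Foxo1AAA libraries, and all Akt/Nras libraries lay lower than both. It was 2.79-fold lower in Akt/Nras tumours (limma log2 change -1.31 ± 0.34 SE, adjusted p = 0.00589), a call lost under equal totals (log2 change -0.36, limma adjusted p = 0.358). For Akt/Nras/Foxo1AAA tumours the log2 change was -0.68 (95% interval -1.44 to 0.08, limma adjusted p = 0.107), and without normal liver replicate 3, the lowest, it was -1.01 and passed (limma adjusted p = 0.00425). The tumour groups differed by 0.63 on the log2 scale (95% interval -0.18 to 1.45, limma adjusted p = 0.287). G0s2 overlaps Lamb3 on the other strand, whose level reached at most 1.85 FPKM.

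The ratio of inhibitor to lipase, G0s2 to Pnpla2, was 1.34, 1.14 and 1.24 in Akt/Nras/Foxo1AAA tumours and 0.672, 1.44 and 0.933 in Akt/Nras tumours, against 2.72, 1.36, 0.735 and 2.39 in normal livers. The groups overlapped in each comparison, and none of the 3 differences passed (exact permutation p = 0.4, 0.286 and 0.4 for Akt/Nras/Foxo1AAA and Akt/Nras tumours against normal liver and for the tumour groups, two-sided, adjusted p = 0.45 each).

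Counted over all 10 genes, 5 were called higher and 1 lower in Akt/Nras/Foxo1AAA tumours than in normal liver, where 26.8% and 36.5% of all 12439 tested genes were called higher and lower. In Akt/Nras tumours 5 were higher and 4 lower, against 31.1% and 37.9% of all genes. Of the 5 in each, Plin4 and Cidea passed the filter with no normal liver at 1 FPKM. Under equal totals 7 were higher and 1 lower in each comparison, where 61.0% and 13.5% of all genes were called higher and lower for Akt/Nras/Foxo1AAA tumours, and 69.2% and 13.8% for Akt/Nras tumours. With Foxo1AAA against without it, 2 genes, Dgat2 and Cideb, were higher and 0 lower, against 7.93% and 4.13% of all genes, and under equal totals Dgat2 was higher and Plin4 lower, against 5.27% and 26.0%. Beside the 0 called lower there by limma, 1 gene with a negative change, Plin4, had an unadjusted p under 0.05 (0.0261), and limma voom on recovered reads called 1 lower, Plin4 again. The comparisons with normal liver share the same 4 normal livers, so like values in them are not independent.

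**Figure D4:**
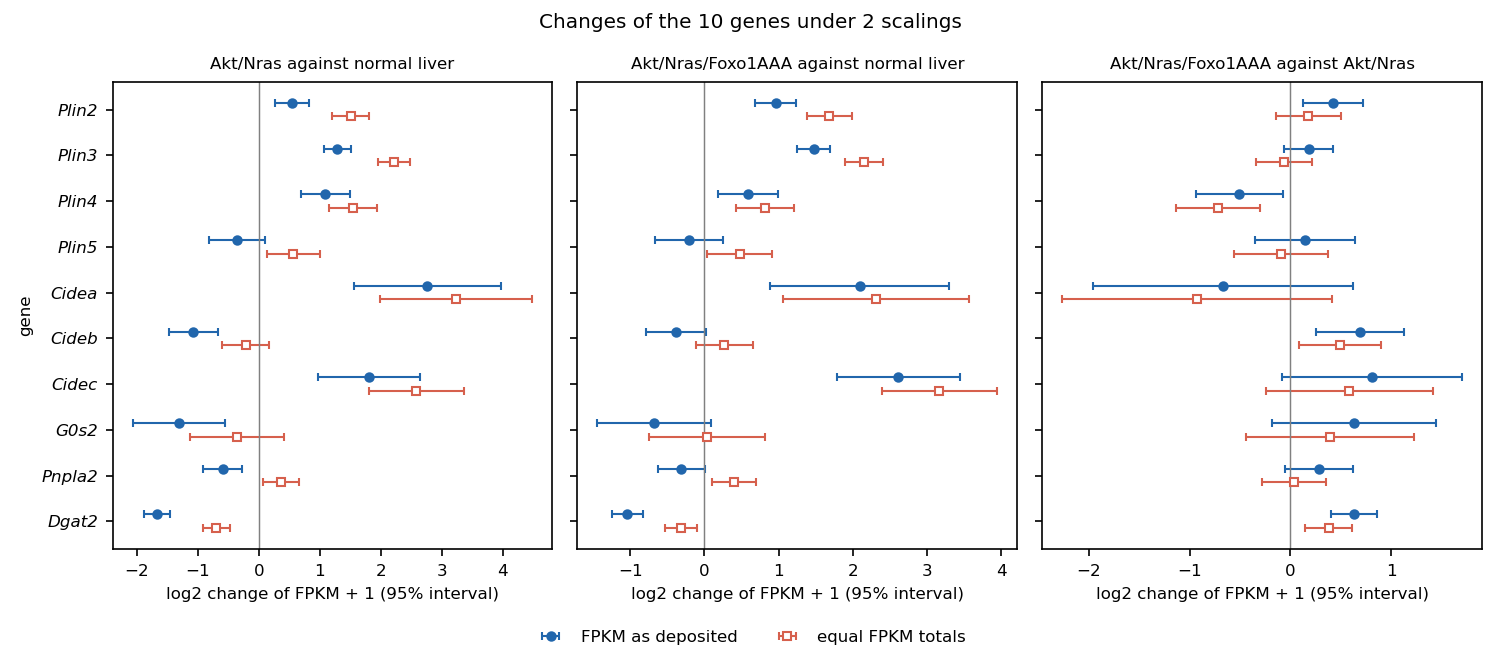
Log2 change of FPKM + 1 (x axis, with 95% intervals from limma) of each of the 10 genes (y axis) in the 3 comparisons, from FPKM as deposited (filled circles) and under equal totals (open squares). Plin2, Plin3, Plin4, Cidea and Cidec stay right of 0 and Dgat2 left of 0 against normal liver under both, while Pnpla2 and Plin5 in both tumour groups, and Cideb and G0s2 in Akt/Nras/Foxo1AAA tumours, cross to the other side.

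Cell type markers moved beside these values. The summed level of 6 hepatocyte genes was 32920 to 48680 FPKM in Akt/Nras/Foxo1AAA tumours and 26612 to 29576 FPKM in Akt/Nras tumours, against 95430 to 100406 FPKM in normal livers, and none of the 6 was at 0. The sum of 5 cholangiocyte and progenitor genes, mostly Spp1, was 2658 to 5383, 4099 to 5796 and 16.0 to 24.1 FPKM in the same order. For 7 macrophage genes it was 167 to 199, 125 to 222 and 84.5 to 121 FPKM, for 6 stellate cell and fibroblast genes 60.4 to 79.3, 87.4 to 117 and 29.7 to 36.7 FPKM, and for 4 endothelial genes 19.5 to 28.5, 15.8 to 24.3 and 23.4 to 30.8 FPKM. Within these lists genes did not all move alike. Col1a1 averaged 42.5, 61.5 and 1.83 FPKM, against 1.85, 1.36 and 3.86 for Lrat and 14.01, 13.92 and 21.15 for Dcn. Pecam1 averaged 5.60, 6.20 and 2.11 FPKM, against 11.8, 6.53 and 17.1 for Clec4g. Lyz2 averaged 105, 121 and 36.3 FPKM, against 45.8, 22.7 and 51.3 for Clec4f. Krt7, of the cholangiocyte list, averaged 0.254, 1.62 and 0.238 FPKM. The part of these cells in the changes of the 10 genes was not tested, and in bulk tissue fewer cells of a type and less RNA per cell cannot be told apart.

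Other genes of the droplet coat and its assembly fell more often than they rose in deposited FPKM, and rose more often than they fell under equal totals, as did all tested genes. Of 16 tested, 4 were higher and 10 lower in Akt/Nras/Foxo1AAA tumours and 3 higher and 10 lower in Akt/Nras tumours than in normal liver, with median log2 changes of -0.40 and -0.53, and under equal totals 8 were higher and 3 lower in Akt/Nras/Foxo1AAA tumours and 8 higher and 4 lower in Akt/Nras tumours. Over all tested genes 26.8% were called higher and 36.5% lower in Akt/Nras/Foxo1AAA tumours and 31.1% and 37.9% in Akt/Nras tumours, and under equal totals 61.0% and 13.5%, and 69.2% and 13.8%. Hilpda, a hypoxia-induced droplet protein that inhibits PNPLA2, rose to 16.4, 23.3 and 48.0 FPKM in Akt/Nras/Foxo1AAA tumours (log2 change 3.04, limma adjusted p = 9.29e-05) and 81.9, 28.9 and 42.4 FPKM in Akt/Nras tumours (3.83, limma adjusted p = 1.23e-05), against 1.52 to 3.81 FPKM in normal livers. Pairs of log2 changes here and below are for Akt/Nras/Foxo1AAA tumours and then for Akt/Nras tumours, each against normal liver. Tmem159, which encodes the seipin partner LDAF1, rose by 1.25 and 1.55 on the log2 scale. Lpcat2, a phospholipid acyltransferase counted among the higher genes with 0.95 and 1.02, passed the filter through tumour libraries alone. Fitm1, a protein of droplet budding, stood at 20.8, 13.3 and 6.49 FPKM in Akt/Nras/Foxo1AAA tumours and 3.13, 4.35 and 5.27 FPKM in Akt/Nras tumours, against 62.7 to 67.2 FPKM in normal livers. It was lower in both (log2 changes -2.33 and -3.68) and higher with Foxo1AAA than without (1.36, limma adjusted p = 0.0207). The droplet-associated Mettl7b (-1.70 and -2.51) and Hsd17b11 (-1.54 and -2.08) were lower in both tumour groups as well.

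Of 15 genes of triglyceride and sterol ester synthesis, 2 were higher and 7 lower in Akt/Nras/Foxo1AAA tumours and 4 higher and 8 lower in Akt/Nras tumours (median log2 changes -0.33 and -0.39; under equal totals 8 higher and 3 lower, and 7 higher and 4 lower). Of all tested genes, 26.8% were higher and 36.5% lower in Akt/Nras/Foxo1AAA tumours and 31.1% and 37.9% in Akt/Nras tumours, with 61.0% and 13.5%, and 69.2% and 13.8%, under equal totals. Mogat1, a monoacylglycerol acyltransferase of fatty liver, stood at 6.05, 2.84 and 1.21 FPKM in Akt/Nras/Foxo1AAA tumours and 1.48, 1.30 and 2.77 FPKM in Akt/Nras tumours, against 0.0548 to 0.537 FPKM in normal livers (log2 changes 1.74 and 1.25, limma adjusted p = 0.00105 and 0.00697). It is counted among the higher genes but passed the filter with no normal liver at 1 FPKM, so these calls carry little. The phosphatidate phosphatases diverged, with Lpin3 higher (0.67 and 0.71) and Lpin1 (-1.74 and -1.98) and Lpin2 (-1.71 and -2.10) lower. The lysophosphatidate acyltransferase Agpat5 rose in Akt/Nras tumours (0.44) and was not called in Akt/Nras/Foxo1AAA tumours. The cholesterol acyltransferase Soat2 and the glycerol phosphate acyltransferase Gpat4 were called lower in both tumour groups. Their log2 changes were, for example, -1.42 for Soat2 in Akt/Nras tumours and -1.07 for Gpat4 in Akt/Nras/Foxo1AAA tumours. Of the 15, 2 differed between the tumour groups, where 7.93% of all tested genes were called higher and 4.13% lower. Gpd1 and Agpat3 were higher with Foxo1AAA, by 0.58 and 0.57, and under equal totals Gpd1 no longer passed (limma adjusted p = 0.1). Under equal totals 2 of the 15 were higher and 1 lower with Foxo1AAA, against 5.27% and 26.0% of all tested genes.

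Lipid hydrolases had the lowest medians of the 4 lists against normal liver, in deposited FPKM. Of 14, 2 were higher and 10 lower in Akt/Nras/Foxo1AAA tumours and 1 higher and 10 lower in Akt/Nras tumours, with median log2 changes of -1.25 and -1.56, against -0.09 and -0.07 over all tested genes, and under equal totals 4 were higher and 9 lower in both. The shares of all tested genes called lower were 36.5% and 37.9% in deposited FPKM and 13.5% and 13.8% under equal totals, and those called higher 26.8% and 31.1%, and 61.0% and 69.2%. The carboxylesterase Ces3b stood at 14.3, 8.94 and 3.82 FPKM in Akt/Nras/Foxo1AAA tumours and 0.119, 0.483 and 1.10 FPKM in Akt/Nras tumours, against 355 to 460 FPKM in normal livers. Ces3a (-4.76 and -6.44) and Ces1f (-4.00 and -4.40) fell with it, and reads of these paralogs can be shared between copies. Against this, Pnpla3, a droplet lipase gene induced by feeding, was higher (1.61 and 0.84, limma adjusted p = 0.000419 and 0.018). Abhd5, the activator of PNPLA2, stood at 10.8, 9.01 and 8.97 FPKM in Akt/Nras/Foxo1AAA tumours, 5.40 to 6.80 FPKM in Akt/Nras tumours and 5.47 to 6.19 FPKM in normal livers, and was higher with Foxo1AAA than in normal liver (0.62, limma adjusted p = 0.000174). With Foxo1AAA against without it 4 of the 14 were higher and 0 lower by limma, in deposited FPKM and under equal totals (in deposited FPKM 0 were lower at an unadjusted p under 0.05 as well), against 7.93% and 4.13% of all tested genes in deposited FPKM and 5.27% and 26.0% under equal totals, led by Ces3b (2.57), hepatic lipase Lipc (1.18) and the monoglyceride lipase Mgll (1.10).

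Among 16 transcriptional regulators of lipid metabolism, 3 were higher and 12 lower in Akt/Nras/Foxo1AAA tumours and 2 higher and 12 lower in Akt/Nras tumours (median log2 changes -0.81 and -0.93; under equal totals 4 higher and 6 lower, and 5 higher and 7 lower). The 3 higher in Akt/Nras/Foxo1AAA tumours include the injected Foxo1, and Ppargc1b, counted as lower in both, passed the filter through normal livers alone. Of all tested genes 26.8% were higher and 36.5% lower in Akt/Nras/Foxo1AAA tumours and 31.1% and 37.9% in Akt/Nras tumours, with 61.0% and 13.5%, and 69.2% and 13.8%, under equal totals. Pparg, a nuclear receptor that drives Cidea and Cidec expression in fatty liver, rose to 7.07, 5.08 and 4.79 FPKM in Akt/Nras/Foxo1AAA tumours and 4.32, 3.41 and 4.61 FPKM in Akt/Nras tumours, against 1.55 to 1.81 FPKM in normal livers (log2 changes 1.30 and 0.93, limma adjusted p = 9.1e-06 and 7.48e-05). Ppara, the nuclear receptor of fatty acid oxidation (-1.68 and -2.21), Mlxipl, which encodes ChREBP (-1.79 and -2.68), and the hepatocyte differentiation factor Cebpa (-1.20 and -2.12) were lower in both. Insig2, which retains SREBP in the endoplasmic reticulum, was higher in Akt/Nras/Foxo1AAA tumours than in normal liver (1.26) and than in Akt/Nras tumours (1.06, limma adjusted p = 0.0133). Ppard, a nuclear receptor, rose by 0.27 in Akt/Nras tumours and was lower with Foxo1AAA than without (-0.34, limma adjusted p = 0.0484). All log2 changes given for genes of these 4 lists kept their sign under equal totals. Counting Foxo1 itself, 6 of the 16 were higher and 1 lower with Foxo1AAA than without (5 and 1 under equal totals), against 7.93% and 4.13% of all tested genes (5.27% and 26.0% under equal totals).

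**Figure D5:**
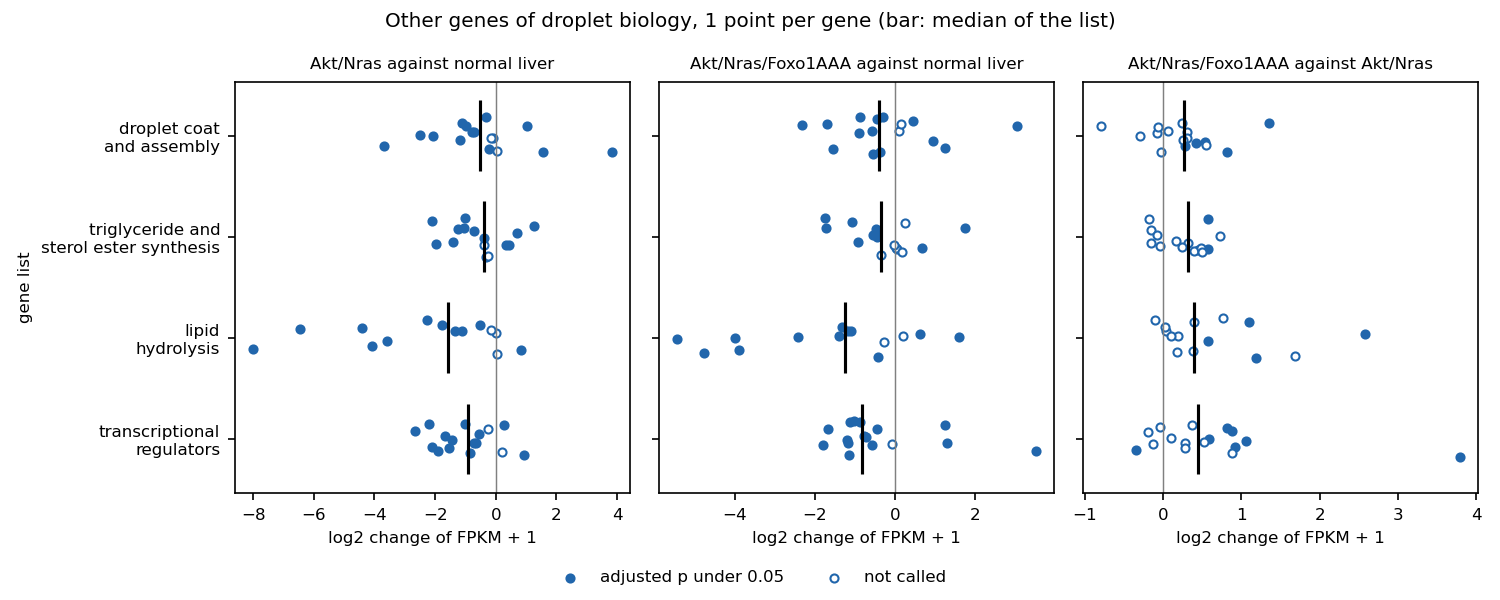
Log2 change of FPKM + 1 (x axis) of every tested gene of 4 lists (y axis) in the 3 comparisons, with filled points for limma adjusted p under 0.05, open points for genes not called and a bar at each list's median. In deposited FPKM, as plotted, medians lay left of 0 against normal liver, lowest for hydrolases at -1.56 in Akt/Nras tumours, and right of 0 between the tumour groups. Under equal totals medians in Akt/Nras/Foxo1AAA and Akt/Nras tumours against normal liver were 0.23 and 0.32 for droplet coat and assembly. They were 0.26 and 0.22 for synthesis, -0.60 and -0.62 for hydrolases and -0.20 and -0.06 for regulators, against 0.47 and 0.70 over all tested genes.

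The genes whose log2 levels followed each of the 10 most closely over the 10 libraries, by Pearson's r, were Plec and Slc35f5 for Plin2 (0.985 and 0.975), Pdgfa and Lgals3bp for Plin3 (0.996 and 0.995), and Bmp6 for Plin4 (0.988). Plin5 had the weakest companions, Acox2 and Amz2 (0.900 and 0.873). Cidea was followed by Tc2n and Tnfrsf23 (0.990 and 0.983), Cideb by Gpd1 and Slc6a13 (0.975 each) and Cidec by Fam124a and Myh14 (0.983 and 0.980). For G0s2 they were Psmc2 and Sqle (0.959 and 0.938), for Pnpla2 Sap30l and Tcta (0.971 and 0.963), and for Dgat2 Tymp and Camk2n1 (0.995 each). The 10 libraries fall into 3 groups and share their scaling, so these values mostly describe the order of the groups, and no test was made. Tnfrsf23, picked for its correlation with Cidea, shared the high value of Akt/Nras/Foxo1AAA replicate 3, at 10.9 FPKM against 0.890 and 2.42 FPKM in the other 2 of its group. It was about as high in Akt/Nras replicate 1, with 10.4, 5.75 and 6.86 FPKM in Akt/Nras tumours.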

How the data were processed

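RNA was sequenced from 10 mouse liver libraries, grouped by sample title. The authors deposited 1 table of FPKM values for 56748 genes with gene lengths and no pooling of replicates, per the file headers. Per the labels' protocols libraries followed poly(A) capture or rRNA removal, with no choice stated. The submitters' processing notes name FastQC 0.11.7 and GRCm38. No source used here gives the aligner, counter or strandedness. Of 52073 genes shared with the GRCm38 annotation 1472 had identical coordinates, none of them among the 10 described, so deposited coordinates were not joined to it.

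FPKM times length gave whole reads within 0.02 for 100% of values, 13.6 to 21.3 M per library. The number each library was divided by was between 0.875 and 0.928 of its reads in Akt/Nras/Foxo1AAA tumours, between 1.002 and 1.061 for Akt/Nras and between 0.629 and 0.668 for normal livers. Counting intervals (exact, 95%) cover counting error only.

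Genes with at least 1 FPKM in at least 3 libraries (12439) were tested as log2(FPKM + 1) in 1 fit of all libraries with limma 3.58.1 (lmFit, contrasts.fit, eBayes with trend; R 4.3.3), two-sided, with Benjamini-Hochberg adjustment over all tested genes and calls under 0.05, after the fit was tested on simulated data. Within-library ratios were tested by exact permutation (scipy 1.17.1), adjusted over 9. Replicate numbers did not pair the samples. Alternatives were a pseudocount of 0.1, no filter, a filter of 5 FPKM, 3 other scalings, the compared groups alone, the replicate number as a block, limma voom on recovered reads, and each library left out.

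The genes and lists were chosen with earlier results of these data known. Named were all 10 genes, the injected genes, per list and comparison up to 3 called genes with the largest increase and 3 with the largest decrease, and the 2 genes best correlated with each. Not all of these are printed.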

Additional observations from a re-analysis of the deposited data

Results flagged for a closer look

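In 10 groups of 4 libraries, 1 normal liver group per gene, the highest or lowest library was compared with its neighbour by Dixon's criterion (0.829 for 4 libraries), which flags about 1 in 20 groups by chance, and 3 stood out. Normal liver replicate 1 had 0.153 FPKM of Cidea from 2 reads and the other 3 normal livers had 0, so its gap was the whole range. Normal liver replicate 3 had 57.3 FPKM of Pnpla2, above the others (gap over range 0.843), and 364 FPKM of Dgat2, below the others (gap over range 0.938). The same library had the lowest G0s2 of the normal livers, 42.1 FPKM, and the highest Plin5, 26.4 FPKM. Without it Dgat2 was still lower in both tumour groups. The tumour groups, of 3 libraries each, were not examined in this way.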

How the results depend on the processing

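The 30 results of the 10 genes were recomputed under alternatives, giving 566 values, of which 512 kept direction and side of the threshold, 20 lost the call, 12 gained one and 22 turned. Against normal liver, Plin2, Plin3 and Cidec higher and Dgat2 lower held under all 19 alternatives. Cidea and Plin4, which passed the filter through tumour libraries alone, are not counted as support. Between the tumour groups Dgat2 held under 19 of 19.

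Turned against normal liver with equal totals, without the 50 most abundant genes in the totals and with voom on recovered reads were Plin5 in Akt/Nras/Foxo1AAA tumours (0.47, 0.36 and 0.26) and Akt/Nras tumours (0.56, 0.31 and 0.29), Pnpla2 in Akt/Nras/Foxo1AAA tumours (0.39, 0.27 and 0.15) and Akt/Nras tumours (0.36, 0.098 and 0.055), and Cideb in Akt/Nras/Foxo1AAA tumours (0.27, 0.16 and 0.065). G0s2 in Akt/Nras/Foxo1AAA tumours turned with equal totals (0.032). Between the tumour groups Plin3 turned with equal totals (-0.062) and voom (-0.0073), and Plin5 with both (-0.089 and -0.025), without Akt/Nras/Foxo1AAA replicate 1 (-0.019) and without Akt/Nras replicate 2 (-0.028), with up to 0.35 when other libraries were left out. The log2 ratio of Cidec to Cideb there turned without Akt/Nras/Foxo1AAA replicate 1 (-0.32) or Akt/Nras replicate 1 (-0.017). Scaling by median gene ratios turned none of the results. The alternatives that turned results change the scaling or the libraries, and the cause was not tested.

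In Akt/Nras tumours against normal liver, 1 of the 10 genes was lower with equal totals, 2 without the 50 most abundant genes and 2 with voom, where 4 were lower in deposited FPKM. Of all 12439 tested genes 1713, 2195 and 2297 were lower in these settings, and 4716 in deposited FPKM, so the fall is shared by all genes. In Akt/Nras/Foxo1AAA tumours 2 of the 10 were lower with only the groups compared, and 1 to 2 with single libraries left out. Of all genes 4584 of 11888 were lower with only the groups compared. With single libraries left out 4120 to 4650 of 12268 to 12367 were lower, and 4544 of 12439 in deposited FPKM. Between the tumour groups 1 of the 10 was higher without a filter, with equal totals, with only the groups compared, with the replicate block and with voom. Of all genes 595 of 27446, 656 of 12439, 221 of 11549, 332 of 12439 and 779 of 12439 were higher in these settings. In turn 1 of the 10 was lower with equal totals, without the 50 most abundant genes and with voom, where 3234, 1239 and 2780 of all 12439 were lower. In deposited FPKM 986 of all genes were higher and 514 lower. Leaving out single libraries gave 1 to 3 of the 10 higher and 0 to 1 lower between the tumour groups. Of 12268 to 12367 tested genes 395 to 1237 were then higher and 147 to 702 lower. Over all genes, a filter of 5 FPKM tested fewer genes and called 5027 in Akt/Nras/Foxo1AAA and 5372 in Akt/Nras tumours against normal liver, where 7874 and 8587 were called. Between the tumour groups, against 1500, 923 were called without a filter, 3890 with equal totals, 323 with only the groups compared, 468 with the replicate block, 3559 with voom and 542 to 1939 with single libraries left out.

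Equal replicate numbers did not mark like deviations: over 9 pairs of libraries r was -0.17 to 0.11, and 1 exceeded 0.1. With the replicate block the Plin4 change in Akt/Nras/Foxo1AAA tumours was 0.50 (limma adjusted p = 0.0553) and the Cideb change between the tumour groups 0.69 (0.0787). With 3 or 4 libraries a group, the ratios cannot reach p under 0.05, and Cidea and Plin4 rest on 2 reads and 7 to 42 reads in normal livers.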
